A study of Mus musculus with 8 samples.

Results

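Bidirectional protein-coding promoters are stretches of DNA from which a pair of protein-coding genes is read away in opposite directions. They were taken from the GENCODE M21 annotation of chromosomes 1 to 19 and X of GRCm38 (mm10) as pairs in which the transcription start site (TSS) of the minus-strand gene lay before that of the plus-strand gene, at most 1000 bp away. The region of a pair ran from 1000 bp outside one TSS to 1000 bp outside the other, so the rule itself uses positions of genes and no peak. The rule found 754 pairs, which held 1487 of the 21755 protein-coding genes (6.84%). The other 20268 genes were treated as single TSSs with 1000 bp on each side, so that the 754 pairs were part of 21022 promoter regions. The distance between the TSSs of a pair had a median of 129.5 bp (quartiles 67 and 240 bp), and in 518 pairs (68.7%) it was at most 200 bp. There were 42 pairs that shared a gene with another pair, 21 genes stood in 2 pairs each, and 84 pairs held a predicted or clone-named gene.

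The values came from chromatin immunoprecipitation and sequencing (ChIP-seq) of histone H3 acetylated at lysine 27 (H3K27ac) in Oli-neu, a line of oligodendrocyte progenitor cells derived from embryonic C57BL/6 mice. One library was made from cells proliferating in medium with bFGF, Pdgf-BB, T3 and L-thyroxine, and 1 from control cells differentiating in medium without growth factors and with 1 µM of the erb inhibitor PD174265. The labels give 1 day of differentiation. The methods of the study give a longer time for cultures of this line, and 1 day for its knockdown experiments. Each of the 2 states thus had 1 culture of 1 cell line, so no test between states was possible, and every difference is given as a description. The authors' peak lists held 28924 peaks for proliferating and 27965 for differentiating cells, with the position, fold enrichment over the caller's background and −log10 q of each peak and without read numbers, so that how deeply any peak was sequenced is unknown.

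Most active mammalian promoters recruit polymerases in both directions, and at a bidirectional coding promoter both directions yield a messenger RNA. Such promoters are known for high GC content, CpG islands and few TATA boxes, and many of their genes serve DNA repair, mitochondria, translation or the histone supply of dividing cells. H3K27ac is deposited by the acetyltransferases p300 and CBP on nucleosomes that flank active promoters and enhancers, while the start site itself is often depleted of nucleosomes.

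The DNA between the starts of a few pairs shows what these promoters look like. All stretches printed here are from GRCm38, read 5′ to 3′ on the plus strand from the base after the minus-strand TSS to the base before the plus-strand TSS, and none overlaps an annotated exon. Capitals mark exact matches, on either strand, to GGGCGG (the GC box bound by SP factors), CCAAT (bound by NF-Y), CGGAAG (the core bound by ETS factors), TATAAA (the TATA box), TGACGTCA (the cAMP response element, CRE), the palindrome of 10 bases bound by NRF1 or the word of 11 bases bound by YY1. None of these words contains another, but neighbouring matches can share bases. The first 5 stretches belonged to pairs with a strong peak in both lists: Fam227a/Cby1 at chr15:79658957-79659198, Pdap1/Bud31 at chr5:145140239-145140361, Fam162a/Ccdc58 at chr16:36071595-36071684, St13/Xpnpep3 at chr15:81400078-81400137 and Hadha/Hadhb at chr5:30155163-30155247.
Fam227a/Cby1: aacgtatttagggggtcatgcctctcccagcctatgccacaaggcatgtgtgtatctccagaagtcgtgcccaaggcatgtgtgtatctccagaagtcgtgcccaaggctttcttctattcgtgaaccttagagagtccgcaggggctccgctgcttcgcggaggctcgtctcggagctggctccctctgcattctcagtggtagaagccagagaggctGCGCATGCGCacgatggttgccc
Pdap1/Bud31: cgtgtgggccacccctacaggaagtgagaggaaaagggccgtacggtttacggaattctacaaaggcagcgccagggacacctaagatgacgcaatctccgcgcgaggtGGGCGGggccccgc
Fam162a/Ccdc58: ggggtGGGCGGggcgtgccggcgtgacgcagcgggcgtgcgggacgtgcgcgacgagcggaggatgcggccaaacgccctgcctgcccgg
St13/Xpnpep3: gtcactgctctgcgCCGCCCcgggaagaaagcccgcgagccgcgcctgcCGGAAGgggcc
Hadha/Hadhb: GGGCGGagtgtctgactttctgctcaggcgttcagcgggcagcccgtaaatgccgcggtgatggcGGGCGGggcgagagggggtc
The gap of Fam227a/Cby1 held 1 NRF1 match. Pdap1/Bud31 and Fam162a/Ccdc58 held 1 GC box each, St13/Xpnpep3 held 1 GC box and 1 ETS match, and Hadha/Hadhb held 2 GC boxes. The next 4 stretches are shown because their pairs were marked in 1 list or in none: Kctd10/Ube3b at chr5:114380509-114380606 (proliferating list only), Erp44/Invs at chr4:48279559-48279759 (differentiating list only), and Aspa/Spata22 at chr11:73329597-73329740 and Mrps12/Sars2 at chr7:28741821-28741991 (neither list).
Kctd10/Ube3b: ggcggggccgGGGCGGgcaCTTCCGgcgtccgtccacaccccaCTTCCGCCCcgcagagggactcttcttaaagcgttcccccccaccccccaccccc
Erp44/Invs: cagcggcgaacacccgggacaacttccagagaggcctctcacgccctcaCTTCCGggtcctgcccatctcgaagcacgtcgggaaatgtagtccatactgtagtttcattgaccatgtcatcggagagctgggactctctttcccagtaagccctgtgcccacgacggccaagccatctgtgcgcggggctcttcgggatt
Aspa/Spata22: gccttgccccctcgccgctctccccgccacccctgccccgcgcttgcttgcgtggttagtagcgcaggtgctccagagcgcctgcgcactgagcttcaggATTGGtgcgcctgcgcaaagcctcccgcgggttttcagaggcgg
Mrps12/Sars2: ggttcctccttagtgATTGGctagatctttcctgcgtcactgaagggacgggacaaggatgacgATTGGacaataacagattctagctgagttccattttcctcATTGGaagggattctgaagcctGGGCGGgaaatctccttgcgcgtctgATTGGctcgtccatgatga
Kctd10/Ube3b held 2 GC boxes and 2 ETS matches, of which 1 of each shared bases, Erp44/Invs held 1 ETS match, Aspa/Spata22 held 1 CCAAT box and Mrps12/Sars2 held 4 CCAAT boxes and 1 GC box. The last 2 stretches separate an H2A from an H2B histone gene, at chr13:22042945-22043213 (Hist1h2ag/Hist1h2bj, marked in the proliferating list only) and at chr13:21810198-21810464 (Hist1h2bq/Hist1h2ao, marked in both lists).
Hist1h2ag/Hist1h2bj: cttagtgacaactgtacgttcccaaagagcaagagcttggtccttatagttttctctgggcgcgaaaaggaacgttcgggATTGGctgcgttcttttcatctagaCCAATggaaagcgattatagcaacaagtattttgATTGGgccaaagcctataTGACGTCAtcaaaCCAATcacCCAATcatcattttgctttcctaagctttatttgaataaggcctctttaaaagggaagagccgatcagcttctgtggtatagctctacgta
Hist1h2bq/Hist1h2ao: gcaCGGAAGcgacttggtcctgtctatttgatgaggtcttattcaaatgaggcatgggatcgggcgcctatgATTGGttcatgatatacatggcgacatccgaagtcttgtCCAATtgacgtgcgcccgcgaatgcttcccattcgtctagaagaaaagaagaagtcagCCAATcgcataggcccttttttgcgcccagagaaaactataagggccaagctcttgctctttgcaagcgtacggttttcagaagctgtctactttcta
They held 5 CCAAT boxes and a CRE in the former and 3 CCAAT boxes and 1 ETS match in the latter. Their GC contents were 42.4% and 47.9%, against 76.7% between St13 and Xpnpep3, 80.0% between Fam162a and Ccdc58 and 49.7% between Mrps12 and Sars2. The median over the 626 gaps of at least 50 bp was 62.2%. The stretches are examples. Over those gaps, GC boxes stood in 61.1%, 61.2% and 58.3% with peaks in both lists, 1 list and neither. CCAAT boxes stood in 44.6%, 45.6% and 50.8%, in the same order.

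Bidirectional promoters carried an H3K27ac peak more often than protein-coding promoters in general, in both states. A peak overlapped 391 of 754 pairs in proliferating cells, 51.9% (95% exact Clopper-Pearson interval 48.2 to 55.5%), against 26.2% of all promoter regions and 25.3% of single TSSs. In differentiating cells 458 pairs had a peak, 60.7% (57.2 to 64.2%), against 30.4% of all regions and 29.2% of single TSSs. Peaks of both lists were found at 329 pairs, 43.6% (40.1 to 47.3%), against 21.0% of all regions, and a peak of either list at 520 pairs, 69.0%, against 35.6%. The pairs were thus marked 2.05 times as often as single TSSs in proliferating and 2.08 times as often in differentiating cells. The intervals account for counting error alone, since a spread between cultures could not be estimated.

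The same held with windows of equal width. Around its own TSS, with 1000 bp on each side, 51.6% of the 1487 member genes had a peak in proliferating cells and 60.7% in differentiating cells, against 27.1% and 31.4% of all protein-coding genes. Few peaks were involved: the marked pairs lay under 380 peaks (1.31% of the list) in proliferating and 446 peaks (1.59%) in differentiating cells, of which 11 and 14 reached 2 or more pairs.

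More pairs were marked in differentiating cells alone than in proliferating cells alone. A peak of the differentiating list only was found at 129 pairs (17.1%), against 9.35% of all regions, and a peak of the proliferating list only at 62 pairs (8.22%), against 5.23% of all regions. All regions leaned towards differentiating cells too, although the differentiating list held fewer peaks in all. The study gives more uniquely mapped reads for the differentiating library, and the part of depth in these counts was not tested. Among pairs marked in either list, 63.3% (59.0 to 67.4%) were marked in both, against 58.7% (57.6 to 59.9%) of marked single TSSs.

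Other promoters with an opposite start nearby lay between the pairs and the single TSSs, or above the pairs. Of the single TSSs, 823 had the start of a non-coding transcript running away from them within 1000 bp, and 44.7% of these had a peak in proliferating and 54.6% in differentiating cells. Head-to-head coding genes whose starts overlap, so that the plus-strand TSS lies before the minus-strand TSS, were outside the rule. There were 434 such arrangements besides those that involved a pair, with a median overlap of 323.5 bp, and 57.8% and 66.4% of them were marked in proliferating and differentiating cells. The 18576 single TSSs with neither such a non-coding start nor an overlapping coding start were marked in 23.0% and 26.4%. Starts of pseudogenes, and opposite non-coding starts downstream of the TSS, were not looked up and can lie near these TSSs. The plot by kind of promoter sets these shares side by side. In each list the intervals of the pairs and of the overlapping starts touch each other. They do not touch that of the single TSSs with neither kind of opposite start.

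**Figure D1:**
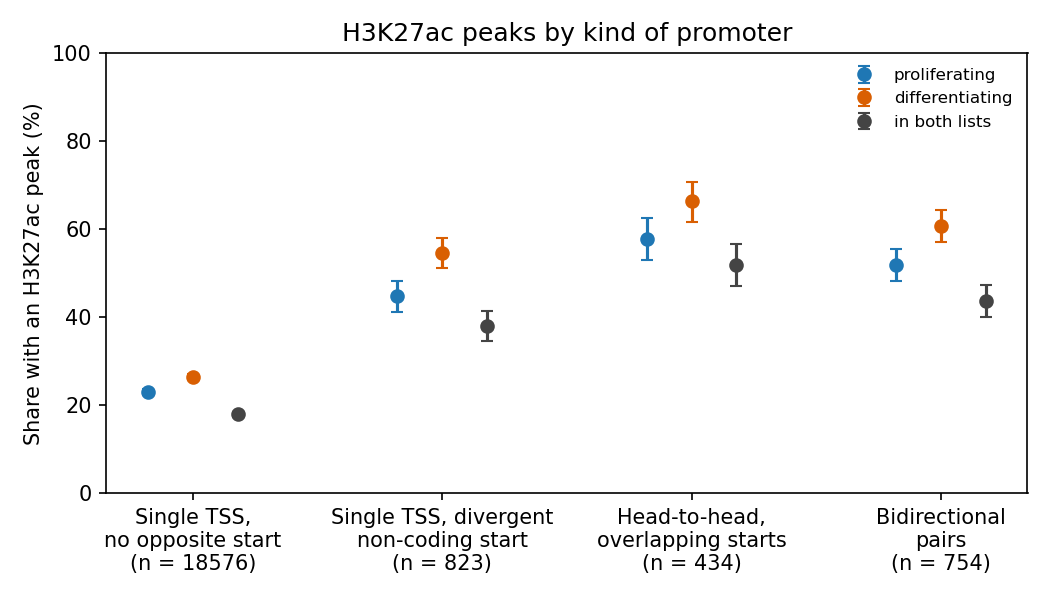
Share of promoters with an H3K27ac peak (%) by kind of promoter, with points for the proliferating list, the differentiating list and both lists, and bars for 95% exact (Clopper-Pearson) intervals, for counting error alone. Bidirectional pairs sit at 51.9% in proliferating and 60.7% in differentiating cells. Single TSSs with neither a divergent non-coding nor an overlapping coding start, labelled as having no opposite start, sit at 23.0% and 26.4%.

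The share of marked pairs varied with the distance between the starts in proliferating cells. It was 48.6% (44.3 to 53.0%) of the 518 pairs at up to 200 bp and 58.9% (52.3 to 65.2%) of the 236 pairs above, with intervals that overlap at their ends. In differentiating cells it was 60.2% (55.9 to 64.5%) and 61.9% (55.3 to 68.1%), and it lay between 58.3% and 63.1% in all 5 bins of distance. Pairs marked in differentiating cells alone made up 19.5% (16.2 to 23.2%) of the pairs at up to 200 bp and 11.9% (8.03 to 16.7%) of those above. The region of a pair grows with the distance between its starts, so distant pairs offered more sequence to overlap. The part of region length in these shares was not tested. At the edge of the rule, Zfyve26/Rad51b (978 bp) was marked in proliferating cells only, Asphd1/Sez6l2 (981 bp) in neither list and Btf3l4/Txndc12 (987 bp) in both. Just outside it, Serpina7/4930513O06Rik (1007 bp) was marked in neither and Gpr108/Trip10 (1009 bp) and Sgsm2/Tsr1 (1011 bp) in both.

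Whether 1 peak covered both starts did change with distance. A single peak lay over both TSSs in 222 of 391 marked pairs (56.8%, 51.7 to 61.7%) in proliferating and in 293 of 458 (64.0%, 59.4 to 68.4%) in differentiating cells. At 1 to 100 bp this was so in 63.1% (54.8 to 70.8%) and 70.9% (63.7 to 77.4%) of marked pairs, and above 500 bp in 26.2% (13.9 to 42.0%) and 35.7% (21.6 to 52.0%), with intervals that do not overlap. The widths of the peaks at the pairs had quartiles of 491.5 and 1267 bp in proliferating and of 586.5 and 1225.5 bp in differentiating cells. A peak of a given width reaches both starts less easily the farther apart they lie, so a fall with distance is built into this measure. The part of peak width in the fall was not tested.

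**Figure D2:**
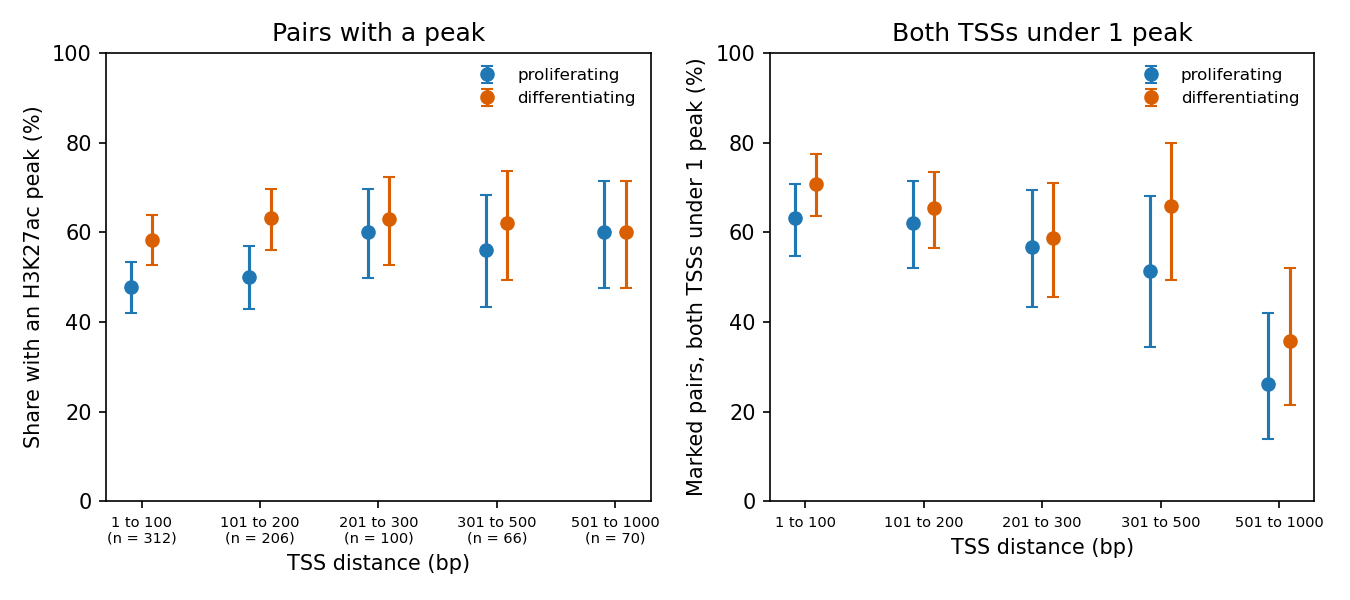
Left, pairs with an H3K27ac peak (%) by TSS distance (bp), and right, marked pairs with both TSSs under 1 peak (%), for both lists, with 95% exact binomial intervals. The left shares stay between 47.8% and 63.1%, while the right shares fall to 26.2% and 35.7% above 500 bp.

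Where 1 peak spanned both starts, its centre lay a median of 135.5 bp from the midpoint of the pair, to either side, in both lists (quartiles 55 and 252.9 bp in proliferating and 67 and 228 bp in differentiating cells). The peak ran a median of 439.5 bp past the minus-strand TSS and 440.5 bp past the plus-strand TSS in proliferating cells, and 394 bp and 442 bp in differentiating cells. Over all pairs, 35.5% had the midpoint itself under a peak in proliferating cells, and 35.3% and 34.0% the positions 200 bp to its minus-strand and plus-strand side. In differentiating cells these shares were 44.3%, 43.9% and 43.0%. A pair has no direction of its own, so an average over pairs evens out its sides whatever the shape of each peak, and the symmetry of the profile is no result. For reference, single TSSs, which were aligned by transcription, had 18.2% and 22.1% at 200 bp downstream.

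**Figure D3:**
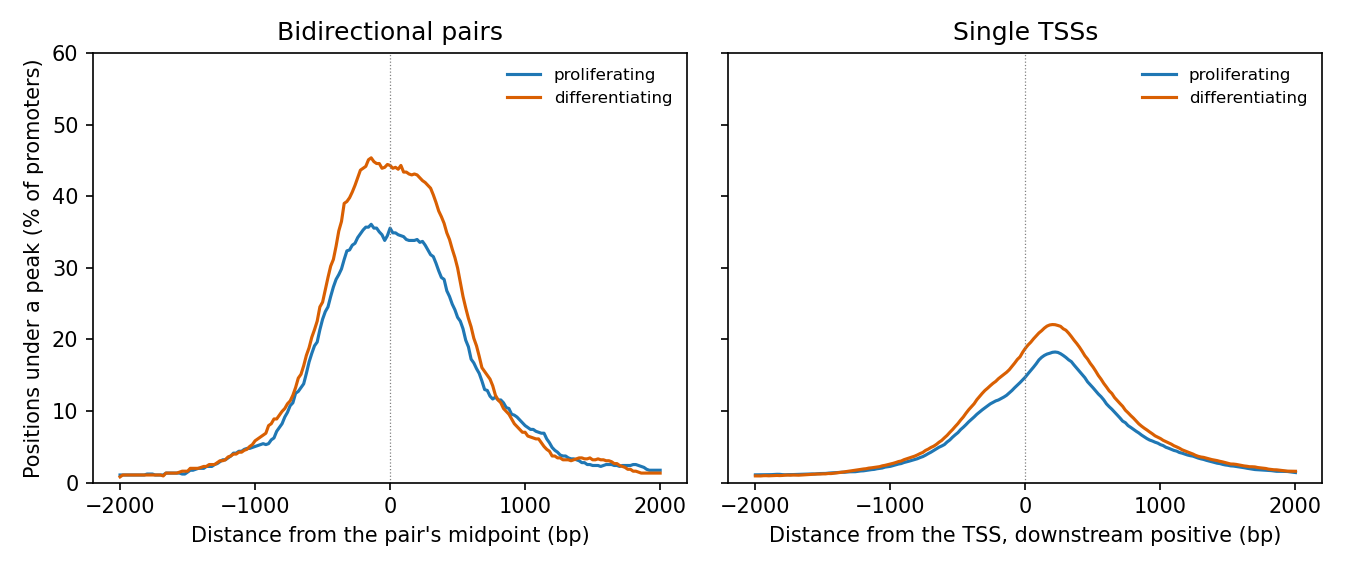
Share of promoters with the given position under an H3K27ac peak (%), against the distance (bp) from the midpoint of a pair (left) or from the TSS with downstream positive (right), one line per list. At the midpoint the lines of the pairs stand at 35.5% and 44.3%, and those of the single TSSs, which unlike the pairs are aligned by transcription, are highest 220 and 200 bp downstream, at 18.2% and 22.1%.

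At other marked pairs the peak covered 1 of the TSSs. It was the minus-strand TSS in 40 pairs and the plus-strand TSS in 31 pairs of the proliferating list, and 41 and 40 pairs of the differentiating list. In 98 pairs (25.1%) of the proliferating and 84 pairs (18.3%) of the differentiating list the peak reached neither start. At marked single TSSs the peak missed the TSS in 41.7% and 35.8%, although a pair offers 2 starts to be covered and a single TSS 1. Where the peak lay to 1 side in both lists, the side mostly recurred. Of these 59 pairs, 53 had it on the same side and 6 on opposite sides. Many peaks were one-sided in 1 list only. In 35 pairs the proliferating peak lay on the minus-strand side, and in 33 on the plus-strand side, while the differentiating peak covered both TSSs. In 24 and 29 pairs the proliferating peak covered both TSSs and the differentiating peak lay on the minus-strand or plus-strand side. In 323 of the 329 pairs marked in both lists the strongest peaks of the lists shared at least 1 base. Peaks that share bases tend to lie on the same side. The lists share the cell line and the antibody, and peaks were called in each on its own.

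The peaks at the pairs were not stronger than those at other marked promoters. Their median fold enrichment was 3.66 (quartiles 3.33 and 4.15) in proliferating cells, against 3.63 at marked single TSSs and 3.33 over the whole list. In differentiating cells it was 3.38 (quartiles 3.13 and 3.79), against 3.45 and 3.13. The stricter limit of −log10 q = 5 was passed at 50 marked pairs (12.8%, 9.64 to 16.5%) in proliferating and 53 (11.6%, 8.79 to 14.9%) in differentiating cells, against 13.7% and 15.3% of marked single TSSs. The peaks of pairs were slightly wider, with medians of 891 and 916.5 bp against 822 and 879 bp. Pairs marked in 1 list had weaker peaks in that list than pairs marked in both: their −log10 q stood at a median percentile of 69.2 of the proliferating list, against 80.0, and at 59.2 of the differentiating list, against 79.4. Few of them had a peak of the other list just past the edge of the region, with 5 of the 62 pairs marked in proliferating cells alone and 4 of the 129 marked in differentiating cells alone within 1000 bp of one.

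Fam227a/Cby1 was the pair with the highest fold enrichment in the proliferating list. Cby1 encodes Chibby, a protein of the ciliary basal body that binds β-catenin. The peak at this pair had a fold enrichment of 6.84 in proliferating cells (chr15:79658740-79659353, −log10 q of 14.1) and of 5.22 in differentiating cells (chr15:79658871-79659647, −log10 q of 10.9), and covered both TSSs in each. Pdap1/Bud31, of which Bud31 is a splicing factor, was the highest in the differentiating list. Its fold enrichment was 6.37 there and 4.77 in proliferating cells.

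The other 6 of the 8 pairs with the highest values in both lists had a fold enrichment of 4.76 or more in the proliferating and 4.70 or more in the differentiating list. Zfp661/Mrps5, with a protein of the small mitochondrial ribosomal subunit, had 5.14 in proliferating and 5.74 in differentiating cells. Rad17/Taf9, which joins a loader of the DNA damage checkpoint clamp to a subunit of TFIID, had 5.24 and 5.11. Its starts lay 528 bp apart, and its differentiating peak fell in the gap between them, over neither. Fam162a/Ccdc58 had 4.88 and 6.33. St13/Xpnpep3, a cochaperone of Hsc70 and a mitochondrial aminopeptidase, had 4.87 and 5.88. B3galt6/Sdf4, an enzyme of the glycosaminoglycan linker and a calcium-binding protein of the Golgi, had 4.76 and 5.51. Ptcd3/Polr1a, the latter the largest subunit of RNA polymerase I, had 5.18 and 4.70. By −log10 q another pair led both lists, Hadha/Hadhb, which was singled out after its values were seen. Its genes encode the 2 subunits of the mitochondrial trifunctional protein of fatty acid oxidation, their starts lay 86 bp apart, and the peak over both had a −log10 q of 20.01 in proliferating and 35.6 in differentiating cells with fold enrichments of 4.28 and 4.80.

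**Figure D4:**
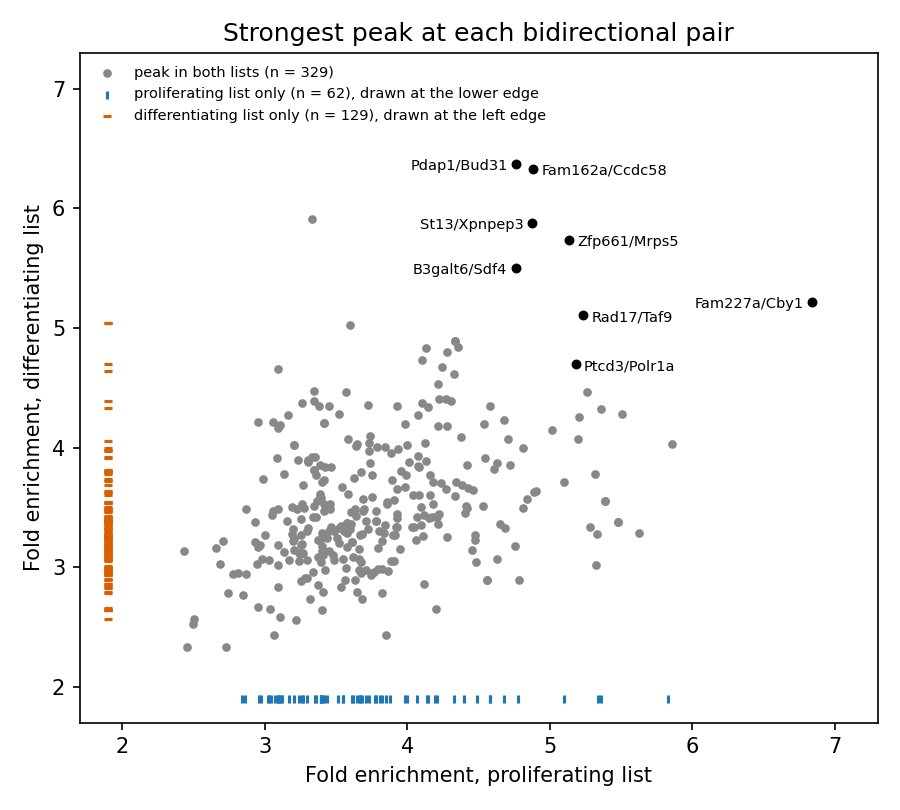
Fold enrichment of the strongest peak at each pair in the proliferating list (horizontal) and the differentiating list (vertical), with the 8 named pairs in black and pairs with a peak in 1 list drawn at the edge of the other axis. The values of the 2 lists are each relative to their own library, and the 329 grey and black points lie between 2.43 and 6.84 in the proliferating and between 2.33 and 6.37 in the differentiating list.

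The strongest pair marked in proliferating cells alone was Kctd10/Ube3b, an adaptor of cullin 3 and a HECT ubiquitin ligase, with a fold enrichment of 5.83 over the TSS of Ube3b, and the nearest peak of the differentiating list lay 84783 bp away. It was followed by Spata17/Gpatch2 with 5.36, Pfdn6/Wdr46 (Pfdn6 is a subunit of the chaperone prefoldin) with 5.34, Cryzl1/Itsn1 (Itsn1 is a scaffold of endocytosis) with 5.10 and Senp8/Myo9a (Senp8 removes NEDD8 from cullins) with 4.77. In differentiating cells alone, the strongest was Bysl/Med20, a factor of small ribosomal subunit assembly and a subunit of Mediator, with 5.04. Its peak lay on the Bysl side outside both starts, and the predicted gene Gm20517, which begins near Med20, gave a second pair under the same peak. Erp44/Invs (a chaperone of the endoplasmic reticulum and the ciliary protein inversin) had 4.69, Rad51ap1/D6Wsu163e 4.64 and Ddx49/Cope (Cope is a subunit of the COPI coat) 4.39. With 1 library per state, a peak in a single list is a difference between these libraries.

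The widest peaks at the pairs were several times wider than the median. In proliferating cells they were those of Odf3l1/Cspg4 (3584 bp), Mrps18b/Ppp1r10 (3129 bp) and Lsm7/Sppl2b (3100 bp), and in differentiating cells those of Pusl1/Acap3 (3602 bp), Srgap2/Fam72a (3243 bp) and Rnf5/Agpat1 (2999 bp). All 6 pairs had a peak in both lists. At Odf3l1/Cspg4 the peak of differentiating cells was 1278 bp wide and at Pusl1/Acap3 that of proliferating cells 1279 bp, so these pairs changed in opposite directions, whereas at Rnf5/Agpat1 the widths were 2923 and 2999 bp. The fold enrichments of the 6 widest peaks were between 2.68 and 3.12, and those of all peaks at these pairs in both lists between 2.33 and 3.30. All were below the median of the marked pairs in their list.

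Cspg4 encodes NG2, the proteoglycan that defines oligodendrocyte progenitors, and was 1 of 3 genes of a list of 60 genes of the oligodendrocyte lineage and myelin that stood in a pair. Its peak began past the TSS, on the side of the Cspg4 gene body, with a fold enrichment of 2.73 in proliferating and 2.33 in differentiating cells. Sox6, a transcription factor that restrains oligodendrocyte maturation, shares its promoter region with 1110004F10Rik, and the peak, of 3.26 in proliferating and 3.53 in differentiating cells, covered the TSS of 1110004F10Rik and not that of Sox6, 601 bp away. Aspa, the enzyme that splits N-acetylaspartate in mature oligodendrocytes, stands opposite Spata22, a meiosis gene, and neither list had a peak there. Markers of cell types were looked up as well. Of 6 markers of the lineage, 4 had a peak within 1000 bp of the TSS (Olig1, Sox10 and Cspg4 in both lists, Olig2 in proliferating cells alone, Pdgfra and Nkx2-2 in neither). Such a peak lay at 0 of 3 astrocyte markers, 0 of 3 microglia markers and 2 of 3 neuron markers (Neurod1 in both lists, Syt1 in differentiating cells alone). Over all promoter regions, 35.6% had a peak of either list, and these few markers do not tell the lineage from neurons.

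The replication-dependent histone genes, which are read into messenger RNA during S phase, formed the list of pairs most often marked in proliferating cells. Of 14 such pairs, 13 had a peak in proliferating and 8 in differentiating cells, against 51.9% and 60.7% of all pairs, so that their order between the states was the opposite of that of all pairs. All 8 were marked in both lists, against 329 of the 458 pairs marked in differentiating cells. Fold enrichments of the 8 ran from 3.00 to 3.67 in proliferating and from 3.05 to 3.46 in differentiating cells. The 5 pairs marked in proliferating cells alone were Hist1h2ag/Hist1h2bj, with the highest value of the 14 (3.88), Hist1h2ae/Hist1h2bg (3.51), Hist1h2bh/Hist1h3f (3.35), Hist1h2bl/Hist1h2ai (3.26) and Hist1h2ah/Hist1h2bk (3.20). The pair without a peak in either list was Hist1h2ba/Hist1h2aa, which encodes the histone variants of testis. All but 2 of these pairs lie in the cluster on chromosome 13, and the other 2, Bola1/Hist2h2ab and Hist2h2ac/Hist2h2be on chromosome 3, lay under 1 and the same peak in each list. Histone genes are near-identical copies of each other and the study's methods kept uniquely mapped reads, so signal at them is less certain than at other genes. The 40 single-TSS histone genes had 26 with a peak in proliferating and 22 in differentiating cells.

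Nuclear-encoded mitochondrial proteins were represented by 50 pairs, of which 20 were marked in proliferating and 32 in differentiating cells, and all 20 of the former were among the latter. Of the 218 single-TSS genes of this list, 38.1% and 47.2% were marked. Ndufa4/Phf14 (Ndufa4 is a subunit of the respiratory chain) had fold enrichments of 4.13 and 4.83, Ncapd2/Mrpl51 (a condensin subunit and a mitochondrial ribosomal protein) 4.42 and 3.49, and Uqcrq/Gdf9 (a subunit of complex III and a growth factor of the oocyte) 4.48 and 3.05. The zinc finger list had the same pattern, with 24 pairs, 12 marked in proliferating and 20 in differentiating cells, and all 12 in both, against 35.8% and 39.8% of 450 single-TSS genes. Over all pairs, 329 of the 391 marked in proliferating cells were also marked in differentiating cells, so most pairs of any list are nested in this way. Zfp91/Lpxn had 5.20 and 4.07, and Zfp942/Zfp943, whose genes are both of this family, had 4.54 and 4.19.

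DNA replication and repair had 39 pairs, of which 17 were marked in proliferating, 24 in differentiating and 15 in both lists, against 47.2% and 52.8% of the 106 single-TSS genes of this list in proliferating and differentiating cells. Brca1/Nbr1, a tumour suppressor of homologous recombination and a receptor of autophagy, had 4.91 in proliferating and 3.63 in differentiating cells, with the peak on the Nbr1 side in each. Rad51c/Tex14 had 4.42 and 3.66, with the peak on the side of the recombination gene Rad51c, and Xpc/Lsm3, of which Xpc recognises damage for nucleotide excision repair, had 2.95 and 4.21 on the Lsm3 side. RNA processing and transcription had the largest number, 62 pairs, with 35, 38 and 29 marked in proliferating cells, in differentiating cells and in both, against 45.0% and 61.2% of 258 single-TSS genes. Hps5/Gtf2h1, with a subunit of TFIIH, had 5.33 and 3.28 over both TSSs, and Srsf7/Ttc39d, with a splicing factor, 5.20 and 4.25 on the Srsf7 side. The first of this list in differentiating cells, Gtf3c1/D430042O09Rik, with a subunit of TFIIIC, had 3.33 in proliferating and 5.91 in differentiating cells.

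Ribosome and translation had 20 pairs, 11, 13 and 10 of them marked in the same order, against 57.3% and 66.5% of 164 single-TSS genes. Atp6v1d/Eif2s1 (a subunit of the vacuolar proton pump and the α subunit of initiation factor eIF2) had 4.89 and 3.63, Zwilch/Rpl4 3.34 and 4.47, Eef1d/Tigd5 4.31 and 4.39 and S100pbp/Yars (Yars is the tyrosyl-tRNA synthetase) 4.38 and 4.09, all with peaks over both TSSs in both lists. The ubiquitin and proteasome list had 29 pairs, with 17, 19 and 12 marked, and of 225 single-TSS genes 90 and 116 were marked. Psma7/Ss18l1, with a proteasome subunit, had 3.57 and 4.47, and Mrpl32/Psma2, with another, had 4.05 in differentiating cells alone. Fbxo24/Lrch4, with an F-box protein, had 5.48 over both TSSs in proliferating cells and 3.38 on the Lrch4 side in differentiating cells. Chaperones had 17 pairs, with 11, 9 and 6 marked, against 49.3% and 54.7% of 75 single-TSS genes. Among them were Vipas39/Ahsa1 (Ahsa1 stimulates Hsp90) with 5.28 and 3.33 and Dnajb4/Fubp1 with 4.27 and 3.66. Vesicle transport had 21 pairs, with 9, 12 and 7 marked, against 43.4% and 54.4% of 226 single-TSS genes. Among them were Alg2/Sec61b (Sec61b is part of the translocon of the endoplasmic reticulum) with 3.99 and 4.19 and Dclre1b/Ap4b1 (a nuclease of telomeres and a subunit of the AP-4 adaptor) with 3.41 and 4.20. The basement membrane list had 1 pair, Col4a4/Col4a3, which encodes chains of collagen IV and had no peak in either list. These counts are small, and in many lists the surplus of pairs over single TSSs seen among all promoters was small or absent in at least 1 state. Pairs had the higher share in both states in the ubiquitin, zinc finger and oligodendrocyte lists. Pairs and single-TSS genes of the ribosome, vesicle and replication lists were marked at like shares in proliferating cells. These were 55.0% against 57.3%, 42.9% against 43.4% and 43.6% against 47.2%, and 40% against 38.1% in the mitochondrial list. In differentiating cells the ribosome, RNA processing and chaperone lists had 65% against 66.5%, 61.3% against 61.2% and 52.9% against 54.7%. The histone and vesicle lists had 57.1% against 55% and 57.1% against 54.4% there. Pairs had the higher share for RNA processing, chaperones and histones in proliferating cells. They also had it for mitochondrial proteins and replication in differentiating cells.

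Among 10 head-to-head pairs well known from textbooks, 5 met the rule and 5 had overlapping starts. Gart/Son, an enzyme of purine synthesis and a splicing cofactor, was marked in both lists with 5.10 in proliferating and 3.72 in differentiating cells, as was Brca1/Nbr1. No peak lay at Mcm4/Prkdc (a subunit of the replicative helicase and the catalytic subunit of DNA-dependent protein kinase), Atm/Npat (the DNA damage kinase and an activator of histone transcription) or Mrps12/Sars2 (a mitochondrial ribosomal protein and the mitochondrial seryl-tRNA synthetase). Of the pairs with overlapping starts, Hspd1/Hspe1, the mitochondrial chaperonins, had 4.18 and 4.68. Surf1/Surf2 had 3.09 and 3.51. Ppat/Paics was marked in differentiating cells alone (3.97) and Col4a1/Col4a2 in neither list.

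The sequence of member promoters differed from that of single TSSs in ways the rule did not use. From 250 bp before to 50 bp after the TSS, member genes had a median GC content of 62.7% (quartiles 56.8 and 68.0%), against 54.3% (47.0 and 62.3%) for single TSSs, and a median ratio of observed to expected CpG of 0.849 against 0.488. A GC box stood in 68.9% of these windows, against 43.4% of the windows of all 21755 genes. ETS matches stood in 44.0% against 20.1%, CCAAT boxes in 44.0% against 38.9%, NRF1 matches in 2.96% against 1.23%, YY1 matches in 2.69% against 0.772% and CREs in 4.51% against 2.45%. TATA boxes were less frequent, with 4.10% against 12.7%. Windows of the genes of a pair can overlap when their starts are close, so the same match can be counted for both genes.

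GC content moved with the H3K27ac share, more so among single TSSs than among member genes. In windows of 40 to 50% GC, 50.5% (40.7 to 60.2%) of 109 member genes and 10.6% of 4998 single TSSs were marked in proliferating cells, and without the histone genes the member share was 40% (29.5 to 51.2%). At 50 to 60% GC the shares were 47.6% and 24.5%, at 60 to 70% they were 52.3% and 41.0%, and at 70% or more they were 56.6% (50.3 to 62.7%) and 48.8% (46.6 to 51.0%). In differentiating cells they were 49.5% and 12.1%, 56.6% and 28.6%, 60.1% and 47.0%, and 74.0% and 57.3% in the same bins. Member genes thus had the higher share in each of these 4 bins of GC content in both lists, with a difference that narrowed from the lowest bin to the 60 to 70% bin.

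**Figure D5:**
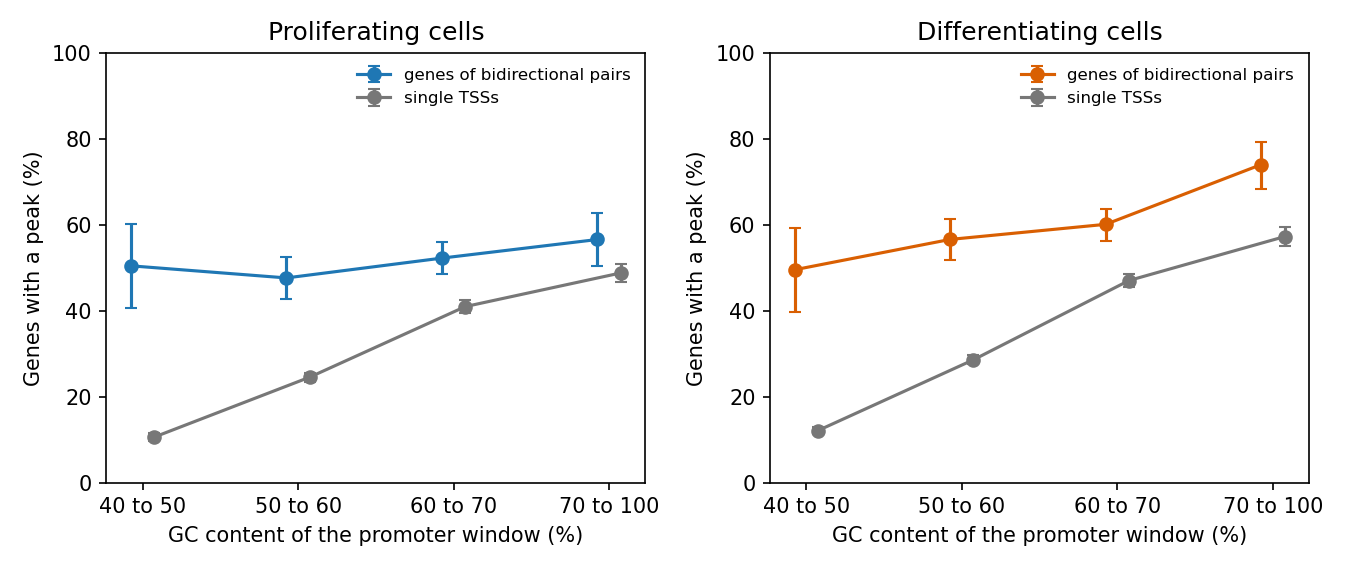
Genes with an H3K27ac peak within 1000 bp of the TSS (%) by GC content of the promoter window (%), for genes of bidirectional pairs (coloured) and single TSSs (grey), in proliferating (left) and differentiating (right) cells, with 95% exact binomial intervals. The shares of single TSSs run from 10.6% to 48.8% and from 12.1% to 57.3%, those of the pairs' genes from 47.6% to 56.6% and from 49.5% to 74.0%.

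Among member genes, GC boxes and ETS matches went with a peak in either list more than with peaks in both. A peak in either list was found at 72.8% (69.2 to 76.2%) of member genes with and 65.5% (62.2 to 68.8%) of those without an ETS match, and at 70.8% (67.9 to 73.6%) and 64.1% (59.5 to 68.5%) with and without a GC box. Peaks in both lists were found at 44.2% and 43.0% with and without an ETS match and at 43.0% and 44.6% with and without a GC box. Among single TSSs a peak in either list was found at 56.5% and 29.4% with and without an ETS match and at 52.1% and 21.8% with and without a GC box. There the matches went with peaks in both lists as well. GC boxes stood in 66.3% of single TSSs with peaks in both lists, 58.2% with a peak in 1 list and 30.2% without a peak. ETS matches stood in 30.8%, 29.2% and 12.1%, in the same order. CCAAT boxes of member genes went the other way. They stood in 49.7% of member genes without a peak, 42.4% of those with a peak in 1 list and 40.8% of those with peaks in both. GC boxes were not separated from GC content. Member genes with a CRE were marked in both lists in 59.7% (47.0 to 71.5%) of 67 cases, against 42.7% (40.2 to 45.4%) without one. A TATA box was found at 61 member genes, of which 63.9% (50.6 to 75.8%) were marked in proliferating cells, while single TSSs with a TATA box were marked in 13.0% of 2692. Histone genes were not left out of the CRE and TATA counts, and 13 of the 14 histone pairs were marked in proliferating cells. The gaps of Hist1h2an/Hist1h2bp and Bola1/Hist2h2ab held a TATA box, and those of Hist1h2ag/Hist1h2bj and Gtf3c1/D430042O09Rik a CRE. The part of histone genes in these shares was not tested. A match of letters is not a bound site, and no binding data were used.

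The share of marked pairs varied along the genome. On chromosomes 1, 10 and 15 together, 69.2% (59.4 to 77.9%) of 104 pairs were marked in proliferating and 79.8% (70.8 to 87.0%) in differentiating cells, against 49.1% (45.2 to 53.0%) and 57.7% (53.8 to 61.5%) of the 650 pairs elsewhere. Single TSSs on these chromosomes were marked more often as well, in 36.3% and 41.1% against 23.5% and 27.3%. Chromosomes 1, 10 and 15 were set apart for being dense in peaks, so a higher share on them is built into the choice and is no result. On chromosome X, 4 and 2 of 20 pairs were marked, on chromosome 7, 20 and 24 of 59, and on chromosome 8, 16 and 26 of 52. Single TSSs of these chromosomes were marked in 5.94% and 7.59%, in 15.2% and 18.2%, and in 21.1% and 24.8%.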

How the data were processed

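H3K27ac ChIP-seq peak lists of proliferating and differentiating Oli-neu cells were used, 1 library per state, and the 6 ATAC-seq samples of the series (3 siCtr and 3 siPadi2) were not analysed here. Per the study's methods and the submitters' processing notes, the authors aligned reads to GRCm38/mm10 with Bowtie2 2.1.0, kept uniquely mapped reads, removed duplicates with SAMtools, called broad peaks with MACS2 2.0.10 and removed blacklisted regions with bedtools. No input library is named. The deposited lists, which have no header, give the ends of each peak and 3 joined values. These were taken to be the fold enrichment, the −log10 p and the −log10 q, in the order of the caller's own output, which is an inference. The study gives a q cutoff of 0.05, whereas the values read as −log10 q start at 1.00 in the proliferating and 1.01 in the differentiating list. The main shares use the full lists, which thus hold weaker peaks too. Of the pairs marked in 1 list alone, 2 of 62 (proliferating) and 10 of 129 (differentiating) rested on a q above 0.05. Without read counts, the depth of a peak is unknown.

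Coding genes, with the TSS at the 5′ end of the gene record, came from GENCODE M21. Any shared base counted as overlap. Shares have 95% exact (Clopper-Pearson) intervals, for counting error alone. No test was run, since 1 library per state leaves no replicate error. Scripts were tested on simulated data and used Python 3.11.15, numpy 2.4.6, pandas 2.3.3, scipy 1.17.1, pysam 0.24.0 and matplotlib 3.10.9. Members, lists and named pairs were chosen with earlier results of these data known. Named pairs are the 8 strongest in both lists (by the lower fold enrichment), the 5 strongest in each list alone, the 3 widest per list, pairs of the oligodendrocyte list, 10 textbook pairs (1 of them not reported here) and, in each other gene list, up to 4 of the strongest. The gene lists are patterns of symbols, of which 3 (histones, chaperones and collagens) were narrowed after their members were seen to include unrelated genes.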

Additional observations from a re-analysis of the deposited data

How the results depend on the processing

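Of 64 recomputed shares, 45 moved by less than the counting interval of the main value, and 19 moved by more. A −log10 q of at least 5 lowered the marked pairs to 6.63% (proliferating), 7.03% (differentiating) and 3.05% (both lists), and single TSSs to 3.47% and 4.47%. At that limit 75.5% of marked pairs in differentiating cells had both TSSs under 1 peak. The other shifts were of single TSSs. In proliferating and differentiating cells their share was 22.1% and 25.6% with promoters from 3000 bp upstream to 100 bp downstream, 23.5% and 27.3% without chromosomes 1, 10 and 15, 26.2% and 30.2% on chromosomes 1 to 19 alone, and 24.5% and 28.2% without divergent non-coding starts. A q of at most 0.05 gave 28.5% in differentiating cells. Among the alternatives chosen after seeing the data, the share was 23.9% and 27.6% without overlapping coding starts, and 28.8% and 33.6% for named genes without olfactory and vomeronasal receptors. The ratio of pairs to single TSSs lay between 1.57 and 2.49 over the settings planned for the pairs. No paired analysis was possible because each state had 1 library and no result came from a test. For the same reason no replicate could be left out. Depth per peak is unknown, so a pair without a peak is not shown to lack H3K27ac.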
